A study of Mus musculus with 8 samples.

Results

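Of the 32531 gene symbols counted in mouse islet RNA, 59 belonged to the semaphorin, Slit and netrin families of guidance cues, their receptors and the Srgap proteins. They were taken by the start of their symbol (Sema3 to Sema7, Plxn, Slit, Robo, Ntn, Ntng, Unc5, Nrp1, Nrp2, Neo1, Rgma, Rgmb, Flrt and Srgap) together with Dcc. By role they were 33 ligands, 21 receptors, 3 Srgap effectors and 2 other genes. Those 2, Unc50 and Unc5cl, were taken in by the start of their symbol but are not netrin receptors. The islets came from 4 control mice with the alleles RIP-Cre+, Rosa26-rtTA+ and tetO_NICD-, and from 4 β-tetO-NICD mice that carried tetO_NICD+ beside the same Cre and rtTA. All were on a mixed C57BL/6J, 129X1/SvJ and BALB/c background, and all received doxycycline (Dox) in drinking water for 8 weeks. An insulin promoter drives the Cre, which permits rtTA in β cells, and Dox then switches on NICD, the intracellular domain of Notch1, which is the active form of that receptor. Since whole islets were sequenced, the RNA also came from cells that do not carry active NICD. The labels used here give no age.

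Semaphorins are secreted or membrane-bound cues that act mostly through plexins, with neuropilins as co-receptors for the secreted class 3 members. Slits are secreted and act through Robo receptors, whose signal passes in part through Srgap proteins, which regulate small GTPases. Netrins attract through Dcc and Neo1 and repel through Unc5 receptors, Rgm proteins also bind Neo1, and Flrt proteins bind Unc5 receptors and latrophilins. These cues are best known from growing axons and vessels, and Robo receptors in β cells are known to be needed for normal islet architecture.

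Libraries held between 21701223 and 26413146 counts, so that 3 counts stood for at most 0.138 CPM (counts scaled to a common library size) by these raw totals, before the TMM scaling used for the CPM values given here. The 4 β-tetO-NICD libraries carry the numbers 1, 2, 4 and 5, and numbers 4 and 5 could not be tied to single mice. Notch1 read 41.6 to 65.0 CPM in controls and 573 to 1321 CPM with the transgene, whose reads cannot be told from endogenous ones. The libraries differed in how expression followed transcript length. Across 14659 genes, each library's departure from the 8-library mean was ranked against the longest annotated transcript. Spearman's correlation was 0.418 to 0.497 for controls 1, 2 and 4, and 0.446 for NICD library 1. It was −0.174 for control 3 and −0.521 to −0.360 for NICD libraries 2, 4 and 5. The Y-linked gene Eif2s3y had 1300 to 1527 counts in 3 libraries (controls 2 and 4, NICD library 5) and no more than 1 elsewhere, although the methods name males.

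The netrin-like ligands Ntng1, Ntn4 and Ntn1 and the adhesion ligand Flrt3 rose in β-tetO-NICD islets, and no guidance gene was called lower. Of the 59 genes, 55 passed a filter of 10 counts in 4 or more of the 8 libraries and entered edgeR's quasi-likelihood test beside all other genes, 15082 in total, at a Benjamini-Hochberg adjusted p of 0.05. The 4 called were 7.27% of those tested, where 4.19% of all genes were called higher, 2.57% lower and 6.76% in either direction. At an unadjusted p under 0.05, 10 of the 55 were higher and 7 lower, beside 16.6% and 15.0% of all genes. The groups did not overlap in 9 guidance genes, 8 higher and 1 lower with NICD, beside 8.21% and 7.93% of all genes. The median log2 fold change (log2FC, β-tetO-NICD over control) of the 55 was −0.11, and that of all tested genes was 0.00. The 31 ligands tested had a median of −0.08, and the 20 receptors had −0.27, with 15 of them negative beside 7534 of the 15082 genes. Both medians turned positive, to 0.09 and 0.06, with an offset for the length trend described above.

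Promoter sequence is shown for the called genes with a RefSeq entry outside annotated exons, since NICD acts on DNA through Rbpj, which binds the core TGGGAA. The 250 bases before the RefSeq start (GRCm38.p6) are given 5′ to 3′ on the gene's strand, with CG dinucleotides in capitals. The Flrt3 window lies at chr2:140671477-140671726 on the minus strand, and the Ntn4 window at chr10:93640799-93641048 on the plus strand. The Ntn4 window ends at the base before the start of the full-length GENCODE transcript and lies in the intron after the first exon of a shorter one, so it is within the gene's annotated span.
Flrt3: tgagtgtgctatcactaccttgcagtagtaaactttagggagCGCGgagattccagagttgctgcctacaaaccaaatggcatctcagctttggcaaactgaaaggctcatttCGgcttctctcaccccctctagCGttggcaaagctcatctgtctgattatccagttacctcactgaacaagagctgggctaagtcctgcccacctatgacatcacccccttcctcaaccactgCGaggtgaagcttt
Ntn4: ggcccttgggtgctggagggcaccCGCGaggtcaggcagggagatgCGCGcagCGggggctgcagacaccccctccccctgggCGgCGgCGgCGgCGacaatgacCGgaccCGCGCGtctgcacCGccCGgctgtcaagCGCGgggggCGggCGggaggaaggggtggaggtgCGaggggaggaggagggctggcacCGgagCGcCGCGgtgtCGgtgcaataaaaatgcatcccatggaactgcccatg
The Flrt3 window held 5 CG dinucleotides and 50.0% G and C. The Ntn4 window was richer, with 26 CG dinucleotides and 73.2% G and C, while the medians of 32851 mouse windows of the same length were 6 and 52.4%. Neither window, nor that of Ntng1, which overlaps an annotated exon and is not printed, held TGGGAA on either strand. The core was in 21.6% of all windows and in 9 of the 63 windows of the 48 guidance genes with an entry (14.3%).

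Ntng1, which encodes netrin-G1, a lipid-anchored ligand of axons, had the largest change among the 55 genes tested. It read 0.691, 0.464, 0.554 and 0.852 CPM for controls 1 to 4, and 5.32, 4.01, 5.21 and 3.72 CPM for NICD libraries 1, 2, 4 and 5. Every NICD library was above every control by a wide margin, and controls held 11 to 21 counts each against 74 to 157 with NICD. The log2FC was 2.83 (SE 0.28, adjusted p = 0.000575). Ntng1 lies on chromosome 3 of GRCm38 from 109780040 to 110144011. It passed in all 8 fits that each left out 1 library. Its paralog Ntng2 had a log2FC of −0.11 (adjusted p = 0.849).

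Ntn4 encodes netrin-4, a component of basement membranes that binds laminin, and lies on chromosome 10 from 93640681 to 93747207. Controls 1 to 4 had 14.5, 14.4, 12.8 and 10.9 CPM, and NICD libraries 1, 2, 4 and 5 had 29.8, 30.7, 28.9 and 20.3 CPM. The groups did not overlap, and library 5 was the lowest of its group. The log2FC was 1.06 (SE 0.18, adjusted p = 0.00827), and it also passed in all 8 of those fits.

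Ntn1, the founding secreted netrin, on chromosome 11 from 68209364 to 68400823, had 8.39, 7.72, 4.55 and 7.91 CPM in controls 1 to 4. The NICD libraries, in the same order as before, had 17.3, 15.4, 15.7 and 9.01 CPM. The lowest of them lay just above the highest control. The log2FC was 1.01 (SE 0.26), and the call stood close to the threshold (adjusted p = 0.0477). It passed in only 2 of the 8 fits that left out 1 library, those without NICD library 1 or 5, and the adjusted p reached 0.135 in the others. Ntn5 had 1 count in all 8 libraries together.

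Flrt3, a transmembrane ligand of Unc5 receptors and latrophilins, rose from low levels. It lies on chromosome 2 from 140650914 to 140671469. Controls 1 to 4 had 0.922, 0.591, 0.435 and 0.527 CPM, from 11 to 20 counts each. NICD libraries had 1.85, 2.58, 3.52 and 2.21 CPM, all above every control. The log2FC was 2.04 (SE 0.34, adjusted p = 0.00849), and it passed in all 8 fits that left out 1 library.

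Its paralogs did not follow. Flrt1, the most abundant Flrt, read 16.2, 13.5, 7.08 and 13.3 CPM in controls against 9.83, 2.05, 3.82 and 1.56 CPM with NICD. Only NICD library 1 reached the control range, at control 3, and the log2FC of −1.54 had a wide error (SE 0.53, adjusted p = 0.0977). Flrt2 had 0.870 to 1.77 CPM in controls and a log2FC of 0.13 (adjusted p = 0.839).

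**Figure D1:**
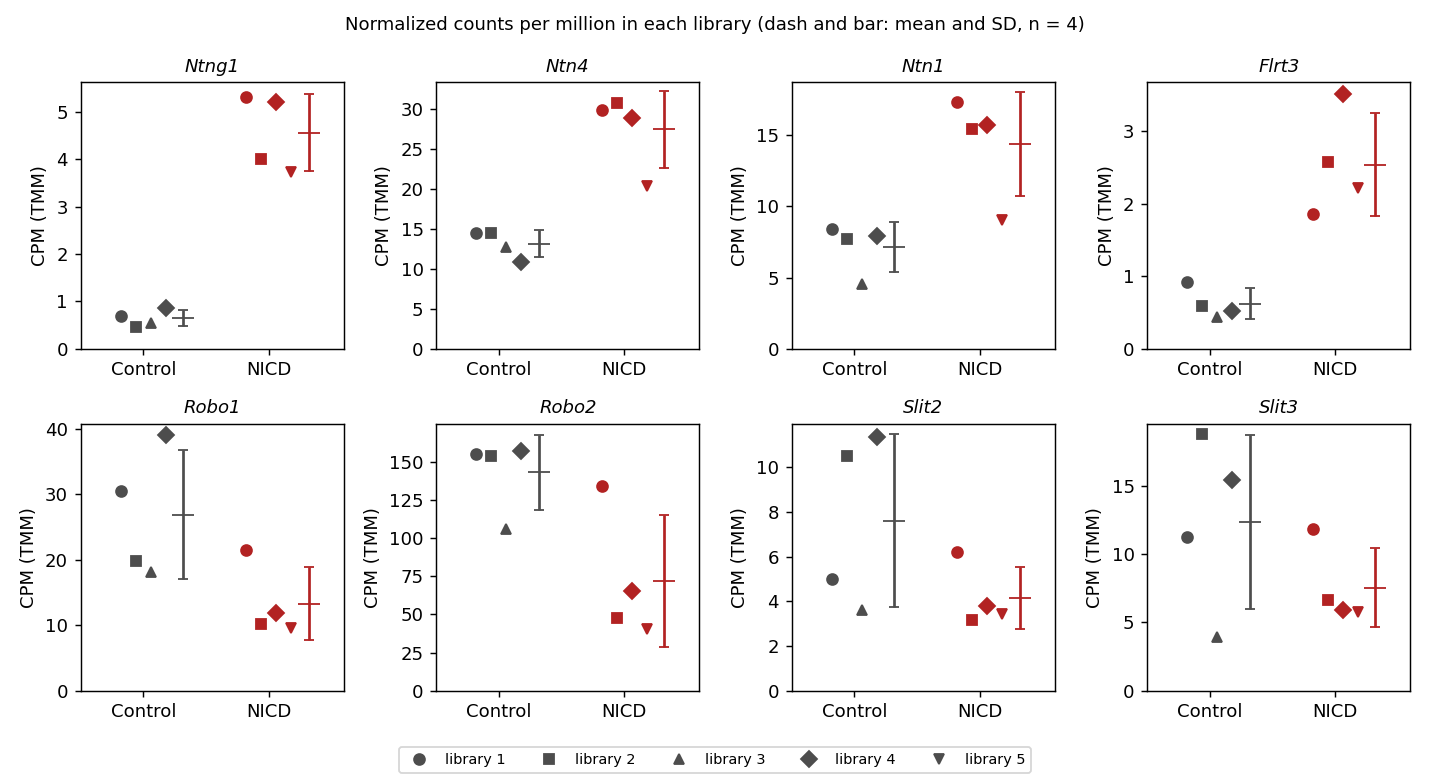
Normalized CPM of 8 guidance genes in each library, with the mean and SD of each group of 4. Ntng1, Ntn4, Ntn1 and Flrt3 do not overlap between the groups, while Robo1, Robo2, Slit2 and Slit3 do.

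None of the tested Unc5 receptors and Neo1, through which Ntn1 signals, was called. Unc5b, a repulsive receptor also found on vessels, had a log2FC of 0.76 (SE 0.23, adjusted p = 0.0702), with controls at 15.7 to 19.3 CPM and NICD libraries at 17.7 to 37.5 CPM. Unc5a had the highest mean CPM of Dcc and the Unc5 receptors over the 8 libraries. It read 37.5, 38.1, 34.3 and 20.6 CPM in controls against 38.9, 42.0, 25.6 and 17.1 CPM with NICD, and the groups overlapped throughout (log2FC −0.08, adjusted p = 0.868). Unc5c and Unc5d had log2FC of 0.13 and −0.24 (adjusted p = 0.827 and 0.691). Dcc, the attractive receptor, had 1, 7, 0 and 12 counts in controls and 1, 0, 1 and 0 with NICD, and was under the count minimum. Unc5cl was also under it, with 3 to 16 counts, and Unc50 had a log2FC of 0.41 (adjusted p = 0.161).

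Neo1, the receptor shared by netrins and Rgm proteins, read 115, 108, 75.1 and 122 CPM in controls against 124, 67.4, 80.4 and 63.4 CPM with NICD. NICD library 1 was the highest of all 8, and the groups overlapped (log2FC −0.32, adjusted p = 0.362). Rgma, a Neo1 ligand, was higher in every NICD library, at 7.46, 5.11, 7.13 and 5.18 CPM against 4.42, 4.56, 4.11 and 2.43 CPM in controls. Its log2FC of 0.68 did not pass (adjusted p = 0.116). Rgmb, a co-receptor of BMP ligands, had a log2FC of −0.43 (adjusted p = 0.138).

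None of the Slit and Robo genes passed, and the 3 Slits, Robo1 and Robo2 had negative log2FC. Robo2 had the highest level of the Robo family per kilobase of transcript, at 16.7 CPM per kb in controls and 8.37 with NICD. It read 155, 154, 106 and 157 CPM in controls 1 to 4 against 134, 47.4, 65.6 and 40.3 CPM in NICD libraries 1, 2, 4 and 5. Library 1 lay within the control range, and the other 3 were below every control. The log2FC was −0.99 (SE 0.35, adjusted p = 0.103).

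Robo1, which acts beside Robo2 as a Slit receptor, read 30.4, 19.8, 18.1 and 39.1 CPM in controls against 21.5, 10.2, 11.8 and 9.51 CPM with NICD. Here too library 1 lay inside the control range and the other 3 lay below it (log2FC −1.02, SE 0.32, adjusted p = 0.0803). Without NICD library 1, Robo2 and Robo1 fell by 1.48 and 1.35 on the log2 scale (adjusted p = 0.00331 and 0.00907), in a fit that called 17.0% of all tested genes lower.

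Both Robo genes have long transcripts, of 8591 bases for Robo2 and 7563 for Robo1. An offset that removes each library's length trend gave log2FC of −0.60 and −0.61 (adjusted p = 0.058 and 0.0747). Among the libraries with a positive length correlation, NICD library 1 differed from controls 1, 2 and 4 by −0.21 in Robo2 and −0.42 in Robo1 on the log2 scale. Among those with a negative one, NICD libraries 2, 4 and 5 differed from control 3 by −1.09 and −0.78. Each of these differences has 1 library on a side and carries no test. The libraries were matched by sign alone, and control 3 had a weaker correlation (−0.174) than NICD libraries 2, 4 and 5 (−0.521 to −0.360).

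Robo3, a receptor of commissural axons, read 0.784, 0.591, 0.910 and 0.649 CPM in controls. NICD libraries had 0.997, 1.44, 0.929 and 1.41 CPM, above every control by a narrow gap (log2FC 0.70, adjusted p = 0.151). Robo4, found on endothelial cells, had a log2FC of 0.05 (adjusted p = 0.862).

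The Slits varied widely among controls. Slit3 read 11.2, 18.8, 3.96 and 15.4 CPM in controls against 11.8, 6.68, 5.91 and 5.79 CPM with NICD, and control 3 was the lowest of all 8 (log2FC −0.71, adjusted p = 0.265). Slit2 read 5.02, 10.5, 3.60 and 11.3 CPM in controls against 6.22, 3.19, 3.78 and 3.42 CPM with NICD, and controls 1 and 3 lay among the NICD values (log2FC −0.88, adjusted p = 0.158). Slit1 ranged from 27 to 352 counts in controls and from 45 to 214 with NICD (log2FC −0.82, adjusted p = 0.452). Slit2 and Slit3 changed sign among the 5 libraries that lack Eif2s3y, to 0.03 and 0.10, and Slit3 also with the length trend as a covariate.

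The Srgap effectors did not move as a group. Srgap3 had the largest change, a log2FC of 0.83 (adjusted p = 0.0884), with 8.65 ± 2.44 CPM in controls and 15.4 ± 5.12 CPM with NICD (mean ± SD, n = 4 each). Srgap2 read 14.1, 16.8, 13.0 and 16.1 CPM in controls against 20.3, 10.1, 12.6 and 15.7 CPM with NICD, so that its log2FC of −0.03 was far within the spread (adjusted p = 0.936). That of Srgap1 was −0.46 (adjusted p = 0.366).

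None of the 19 tested semaphorins passed, and 8 had positive and 11 negative log2FC. Sema4d, a membrane-bound ligand of Plxnb1 and the semaphorin with the highest mean CPM in controls, was the only tested guidance gene whose NICD libraries all lay below every control. It read 46.0, 40.8, 38.8 and 44.9 CPM in controls against 34.8, 33.1, 31.4 and 20.3 CPM with NICD (log2FC −0.51, SE 0.18, adjusted p = 0.1). Per kilobase of transcript Sema4d and Sema4a were alike in controls, at 9.51 and 9.18 CPM per kb. The log2FC of Sema4a was 0.09 (adjusted p = 0.73).

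Sema6b and Sema3a were higher in every NICD library than in any control. Sema6b, which binds class A plexins, read 6.32, 5.87, 5.38 and 4.42 CPM in controls against 8.69, 10.3, 9.72 and 6.64 CPM with NICD (log2FC 0.69, adjusted p = 0.0686). Sema3a, the secreted ligand of Nrp1, had only 6 to 15 counts in controls and 16 to 27 with NICD. Its levels were 0.277, 0.464, 0.316 and 0.608 CPM and 1.28, 0.785, 0.863 and 0.805 CPM (log2FC 1.15, adjusted p = 0.0795).

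Of the other secreted class 3 members, Sema3f, Sema3c, Sema3e and Sema3g had log2FC of 0.18, 0.03, −0.04 and −0.08, and Sema3b had −0.29. Sema3d had 2 to 17 counts and was under the minimum. In class 4, Sema4c and Sema4g had 0.33 and 0.35, and Sema4b and Sema4f had −0.37 and −0.35. In classes 5 and 6, Sema5a, Sema5b, Sema6a, Sema6c and Sema6d had −0.70, −1.05, −0.26, 0.45 and −0.50. Sema7a, which is anchored to the membrane by lipid, had −0.30. Adjusted p values of the tested genes in this group ran from 0.14 for Sema5b to 0.948 for Sema3c.

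Plxnb2, a receptor of class 4 semaphorins, was the most abundant guidance gene per kilobase of transcript, at 52.9 CPM per kb in controls and 39.7 with NICD. It read 392, 369, 257 and 356 CPM in controls against 336, 218, 285 and 192 CPM with NICD, and control 3 lay within the NICD range (log2FC −0.41, adjusted p = 0.211). Of the 9 plexins 8 had a negative log2FC, with −0.85 for Plxna4, −0.76 for Plxna2, −0.68 for Plxnb3, −0.52 for Plxna3, −0.21 for Plxna1 and −0.02 for both Plxnd1 and Plxnc1. Plxnb1 alone was positive, at 0.48 (adjusted p = 0.184). This sign was not stable, as Plxna1, Plxnc1 and Plxnd1 became positive with the length offset, and Plxnc1 and Plxnd1 also with upper-quartile normalization.

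The neuropilins are co-receptors for class 3 semaphorins and for VEGF. Nrp1 read 95.2, 137, 59.6 and 107 CPM in controls against 96.9, 67.6, 63.1 and 94.9 CPM with NICD, with overlap (log2FC −0.31, adjusted p = 0.413). That of Nrp2 was −0.31 (adjusted p = 0.488).

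**Figure D2:**
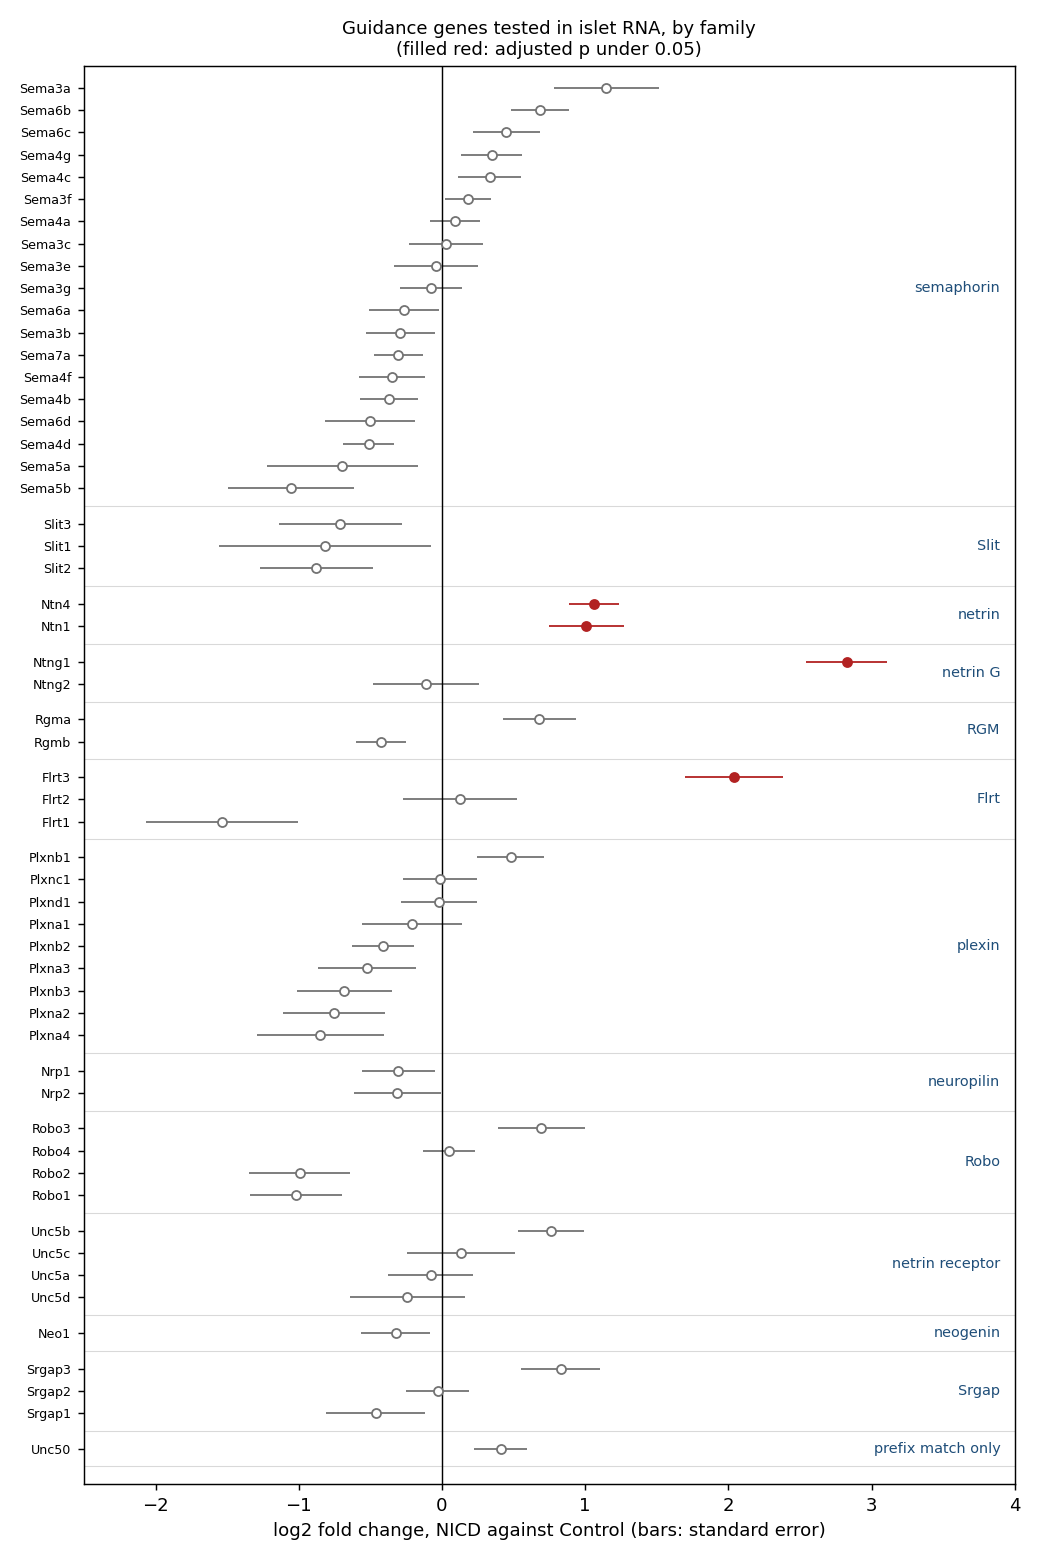
Log2 fold change with its standard error for the 55 tested guidance genes, grouped by family, in red where the adjusted p is under 0.05. Ntng1, Flrt3, Ntn4 and Ntn1 stand to the right at 2.83, 2.04, 1.06 and 1.01, and the Slits and 8 of the 9 plexins lie left of 0 without passing.

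Guidance genes have long transcripts, and in these libraries long transcripts had lower values with NICD. The median longest transcript was 5869 bases for the 55 genes and 3359 for the 14659 tested genes with a length. Over those genes the median log2FC was 0.67 for transcripts of up to 1 kb and −0.64 for those over 10 kb. Spearman's correlation between length and log2FC was −0.49 over all these genes and −0.32 over the 55, as a description of genes that share libraries. The part of this trend in the guidance genes' lower values was not tested.

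With the length offset the median log2FC of the 55 was 0.09, and 9 were called higher and 0 lower, beside 5.79% and 4.53% of all tested genes. The 9 were Ntng1, Flrt3, Ntn4, Ntn1, Srgap3, Plxnb1, Unc5b, Sema3a and Sema6b. Srgap3 had a log2FC of 1.33 (adjusted p = 0.000728), and Plxnb1 had 0.996 (adjusted p = 0.00466). Unc5b had 1.09 (adjusted p = 0.0168), while Sema3a and Sema6b had 1.45 and 0.75 (adjusted p = 0.0211 and 0.033). With the offset the 4 rises called before were 3.11 for Ntng1, 2.14 for Flrt3, 1.12 for Ntn4 and 1.33 for Ntn1. The median log2FC of all tested genes was negative in each length bin over 3 kb, from −0.05 at 3 to 4 kb to −0.64 over 10 kb. The offset brings these medians near 0. It therefore raises most genes of such length, the 9 among them, and cannot test whether the 4 rises depend on length. Among the libraries of positive length correlation these 4 differed by 2.88, 1.38, 1.18 and 1.11 on the log2 scale, and among those of negative correlation by 2.77, 2.43, 1.03 and 1.49. As for the Robo genes, each has 1 library on a side and carries no test.

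**Figure D3:**
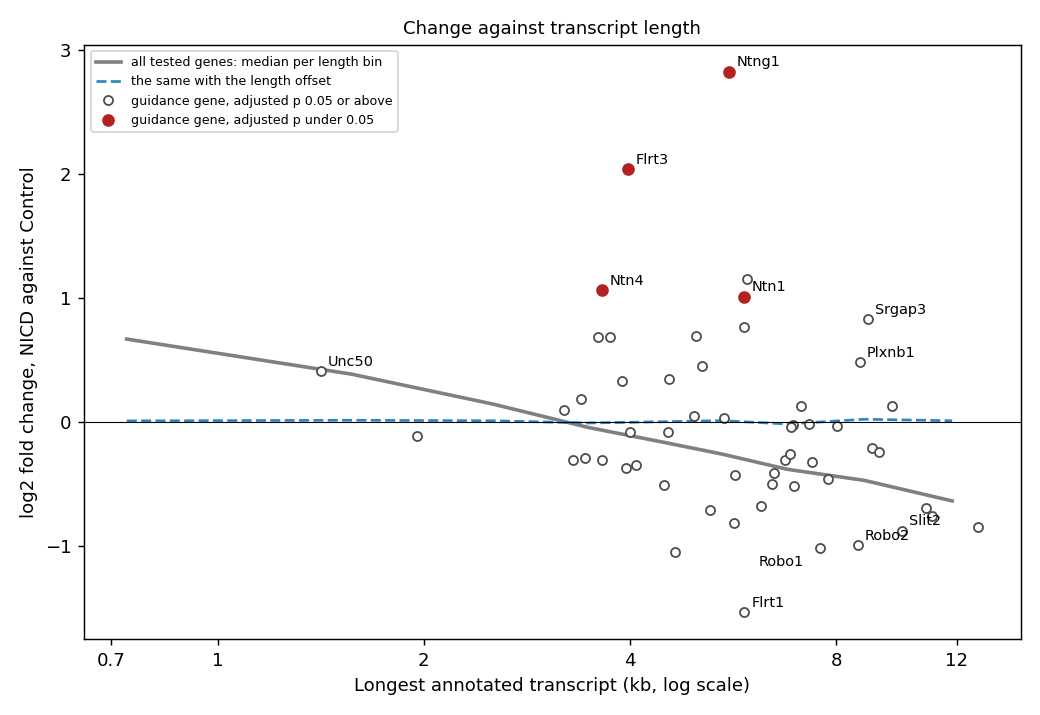
Log2 fold change of each tested guidance gene against its longest annotated transcript in kb, in red where the adjusted p is under 0.05, with the median of all tested genes by length bin. That median falls from 0.67 for the shortest bin to −0.64 for the longest and stays near 0 with the length offset.

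Leaving out NICD library 1 moved the calls most. Then 7 guidance genes were higher and 11 lower, beside 16.3% and 17.0% of all tested genes. The 7 were the 4 above with Sema6b, Unc5b and Unc50. The 11 were Flrt1, Robo2, Sema5a, Robo1, Plxna2, Plxna3, Srgap1, Sema6d, Sema4d, Neo1 and Rgmb, with log2FC from −2.31 in Flrt1 to −0.52 in Rgmb. None of the 11 passed in all 8 libraries with the length offset, where Robo2 had the lowest adjusted p among them, 0.058.

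**Figure D4:**
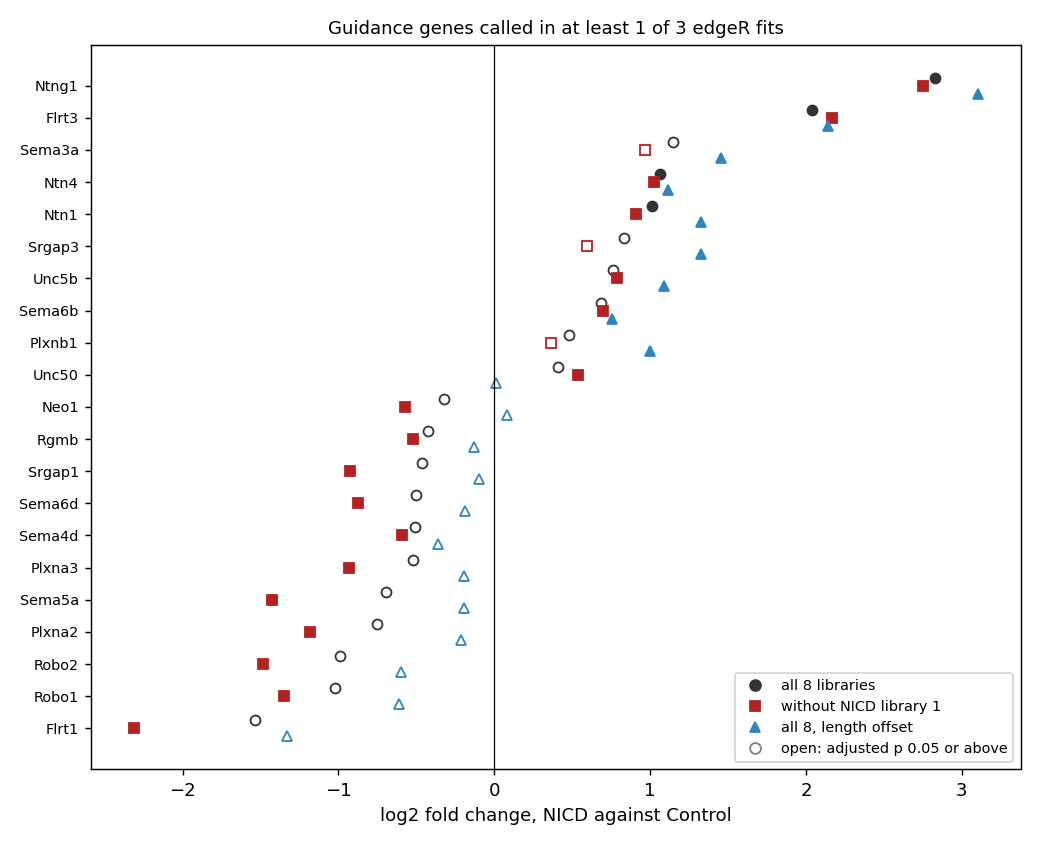
Log2 fold change of the 21 guidance genes called in at least 1 of 3 edgeR fits, namely all 8 libraries, all but NICD library 1, and all 8 with a length offset, with open symbols where a gene did not pass. Ntng1, Flrt3, Ntn4 and Ntn1 pass in all 3, and Robo1, Robo2 and Flrt1 only without library 1.

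Other models kept Ntng1 and differed in the rest. Ntn1 did not pass with limma-voom (adjusted p = 0.0502) or with an Eif2s3y term in edgeR (adjusted p = 0.0948). DESeq2 called 7 guidance genes higher and 3 lower, beside 9.91% and 8.25% of all tested genes, adding Srgap3, Unc5b and Sema6b to the higher ones and Flrt1, Robo1 and Robo2 to the lower ones. An acinar covariate gave the same 4 higher and the same 3 lower, beside 7.94% and 8.36%. With the length trend as a covariate Ntng1, Ntn4, Ntn1 and Srgap3 were higher and none lower, beside 1.91% and 0.942%, and Flrt3 had an adjusted p of 0.055. Among the 5 libraries that lack Eif2s3y only Ntng1 passed (adjusted p = 0.0244) and none were lower, beside 0.597% and 0.212%. Ntn4, Ntn1 and Flrt3 had log2FC of 1.13, 1.32 and 1.98 in those 5 (adjusted p = 0.0556, 0.13 and 0.161).

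Islets hold several cell types, and in bulk RNA fewer cells of a type and less RNA per cell cannot be told apart. The 6 α cell markers summed to 12120 to 43220 CPM in controls and 55870 to 70910 CPM with NICD, and Irx2 and Gc were called higher. Most of that sum was Gcg, at 11310 to 41100 CPM and 53360 to 67020 CPM, which did not pass (adjusted p = 0.0622). The 10 β cell markers summed to 157000 to 197700 CPM in controls and 72350 to 172000 CPM with NICD, with Slc2a2, Ucn3 and G6pc2 called lower. Most of that sum was Ins2 and Ins1, which did not pass (adjusted p = 0.295 and 0.213). Of the 10 markers 8 had a negative log2FC, while Nkx6-1 and Pdx1 had 0.039 and 0.043. Sums of the 4 δ cell markers were 2437 to 6584 and 5083 to 14140 CPM, with Hhex called higher. Sst, which made up most of these sums, did not pass (adjusted p = 0.0619). The 8 macrophage markers summed to 133 to 193 and 192 to 293 CPM, with C1qa called higher. C1qa alone read 62.1 to 97.9 CPM in controls and 112 to 181 CPM with NICD. Of the 8 markers 5 had a positive and 3 a negative log2FC, with a median of 0.05. Of the 6 neuronal markers, which summed to 206 to 322 and 169 to 215 CPM, Th was called lower and Dbh was under the count minimum.

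The other lists had no called marker. In controls and with NICD, in that order, the 10 endothelial markers summed to 529 to 851 and 690.4 to 815 CPM, and the 10 mesenchymal ones to 244 to 831 and 439 to 531 CPM. The 10 acinar markers summed to 38200 to 76410 and 31850 to 115800 CPM, the 6 duct markers to 240.4 to 363 and 305 to 527 CPM, and the 7 Schwann and glial ones to 30.6 to 39.6 and 24.1 to 35.2 CPM. No marker was at 0 in all libraries. The part of these cell types in the rise of the netrins and Flrt3 was not tested.

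Receptor partners and effectors of these pathways were examined in a list of 90 symbols, of which 83 were tested. In all 3 were called higher and 2 lower, or 3.61% and 2.41%, shares just below the 4.19% and 2.57% of all tested genes. Crmp1, a cytosolic mediator of semaphorin signals, had 26.4 ± 1.93 CPM in controls and 50.7 ± 9.64 CPM with NICD (mean ± SD, n = 4 each). Its log2FC of 0.94 (adjusted p = 0.01) passed in all 8 fits that left out 1 library. The small GTPases Rras2 and Rhod, of the kind on which plexin signaling acts, rose by 1.05 and 1.36 on the log2 scale (adjusted p = 0.0303 and 0.0487). Usp33, a deubiquitinase that binds Robo1, had 121 ± 12.4 CPM in controls and 71.8 ± 17.7 CPM with NICD (mean ± SD, n = 4 each), with a log2FC of −0.75 (adjusted p = 0.0431). Pak3, a kinase that acts below Rac and Cdc42, had a log2FC of −0.66 (adjusted p = 0.0498). With the length offset Pak3 and Rhod did not pass, with log2FC of −0.18 and 0.99 (adjusted p = 0.544 and 0.0834). The 4 other than Crmp1 passed in at most 2 of the 8 fits that left out 1 library.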

How the data were processed

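Per the labels, libraries were made with a stranded mRNA kit, and the authors assigned reads to mouse transcripts of GRCm38 by pseudoalignment in Kallisto. The deposited table holds whole-number counts per gene symbol, not normalized. The Kallisto version, annotation release and rounding are not given in the sources used here. A deposited table of the authors' own limma comparison (fold changes, p-values) was not used.

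Each library counted as 1 replicate, since no pair within a group agreed within sampling noise (chi-square of at least 31.5 per gene). Nothing used here says whether replicates shared a batch, so p values measure only the spread between these samples. The guidance genes and all lists were chosen with earlier results of these data known. Counts were normalized by TMM and compared in edgeR 4.0.16 (R 4.3.3) after a filter of 10 counts in 4 of the 8 libraries, by the quasi-likelihood test with Benjamini-Hochberg adjustment. Every adjusted p is from this test unless another is named. Standard errors were derived from the log2 fold change and its F statistic, and CPM are TMM-normalized. Lengths and coordinates are from GENCODE M21 on GRCm38, where all 59 genes matched, and promoters from RefSeq. The length offset is a lowess trend (span 0.3) of each library's log2 CPM (prior count 2) on log2 transcript length. The fits were tested on simulated data.

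All tested guidance genes are named. Values in every library are given for those called, those whose groups did not overlap, the most abundant of each group by role (semaphorins, plexins, neuropilins, Slits, Robos, netrins, netrin receptors, Rgm with Neo1, Flrt, Srgap), and Robo1, Robo2, Slit2 and Slit3, and all called partner genes are named. Alternatives were DESeq2 1.42.0, limma-voom (limma 3.58.1), other normalizations and filters, covariates for length trend, Eif2s3y and acinar markers, a replicate block, and leaving out each library. Comparisons within libraries whose length correlation had the same sign were added after seeing the data. The result of 1 marker gene is not reported here, though it stays in its list's sum.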

Additional observations from a re-analysis of the deposited data

Results flagged for a closer look

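For each tested guidance gene, Notch1 and Hes1, Dixon's test was applied to the 4 libraries of each group, which sets the distance of an end value from its neighbor against the range. Among 114 such groups 8 passed it, where chance gives about 5.7. NICD library 1 was the highest of its group in 4 of the 8, control 3 the lowest in 2, and NICD libraries 2 and 5 stood apart in 1 each.

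NICD library 1 was high for Sema5a (ratio 0.901, 14.3 CPM against 3.32 to 4.41), Sema3c (ratio 0.864, 6.41 against 3.71 to 4.08), Slit3 (ratio 0.853, 11.8 against 5.79 to 6.68) and Sema3a (ratio 0.845, 1.28 against 0.786 to 0.863). Control 3 was low for Robo2 (ratio 0.931, 106 CPM against 154 to 157) and Plxnc1 (ratio 0.893, 2.10 against 2.40 to 2.43). These libraries are the ones whose length correlation had the opposite sign from the rest of their group, and the part of length in these values was not tested. NICD library 2 was high for Slit1 (ratio 0.856, 9.34 CPM against 2.26 to 3.28), and NICD library 5 was low for Sema4c (ratio 0.861, 11.6 CPM against 20.6 to 22.0).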

How the results depend on the processing

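The rises of Ntng1, Flrt3, Ntn4 and Ntn1 kept their direction in every setting run, and Ntng1 passed in every setting with a test. Guidance genes called higher, 4 in the report, were 7 with DESeq2, 9 with the length offset, 1 in the 5 libraries that lack Eif2s3y, and 3 to 7 with each library left out. Those called lower, 0 in the report, were 3 with DESeq2, 3 with the acinar covariate, 1 with the replicate block, and 0 to 11 with each library left out. Of all genes 1020 were called, against 2739 with DESeq2, 1556 with the length offset, 430 with the length-trend covariate, 2459 with the acinar covariate, 122 in the libraries that lack Eif2s3y, and 319 to 4954 with each library left out, most without NICD library 1.

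Partner genes called higher were 5 with upper-quartile normalization and with the length offset, 11 with DESeq2, 7 with the acinar covariate, 1 with an Eif2s3y term, 0 with the length-trend covariate and in the libraries that lack Eif2s3y, and 1 to 14 with each library left out. Those called lower were 10 with DESeq2, 11 with the acinar covariate, 1 with upper-quartile normalization, with no filter and with 10 counts required in every library, 0 with the length-trend covariate, the Eif2s3y term and the libraries that lack Eif2s3y, and 0 to 26 with each library left out.

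Signs turned only in guidance genes that had not passed, and the cause was not tested. With the length offset the log2 fold change turned in Neo1 (0.080), Nrp2 (0.048), Plxna1 (0.26), Plxnc1 (0.38), Plxnd1 (0.36), Sema3e (0.30), Sema3g (0.092), Sema6a (0.14), Srgap2 (0.42), Unc5a (0.010) and Unc5d (0.28). With the length-trend covariate the log2 fold change turned in Neo1 (0.16), Nrp1 (0.099), Nrp2 (0.32), Ntng2 (0.32), Plxna1 (0.44), Plxna3 (0.062), Plxna4 (0.056), Plxnc1 (0.27), Plxnd1 (0.46), Sema3e (0.41), Sema3g (0.17), Sema5a (0.35), Sema6a (0.071), Sema6d (0.12), Slit3 (0.26), Srgap1 (0.050), Srgap2 (0.28), Unc5a (0.035) and Unc5d (0.46). With only the libraries that lack Eif2s3y the log2 fold change turned in Nrp2 (0.11), Ntng2 (0.023), Plxna1 (0.046), Plxnc1 (0.057), Plxnd1 (0.22), Sema3e (0.29), Sema3g (0.25), Sema5a (0.068), Slit2 (0.027), Slit3 (0.099), Srgap2 (0.085) and Unc5d (0.22). With upper-quartile normalization the log2 fold change turned in Plxnc1 (0.057), Plxnd1 (0.051), Sema3e (0.025) and Srgap2 (0.043). With 10 counts required in every library the log2 fold change turned in Plxnc1 (0.010) and Plxnd1 (0.002). With the acinar covariate the log2 fold change turned in Sema3c (−0.10) and Unc5c (−0.16). With the Eif2s3y term the log2 fold change turned in Srgap2 (0.031). With the replicate block the log2 fold change turned in Unc5c (−0.019).

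With each library left out in turn, signs turned in Flrt2 (−0.11 to 0.35), Ntng2 (−0.27 to 0.13), Plxna1 (−0.59 to 0.006), Plxnc1 (−0.18 to 0.13), Plxnd1 (−0.20 to 0.14), Robo4 (−0.031 to 0.22), Sema3c (−0.18 to 0.12), Sema3e (−0.36 to 0.13), Sema3g (−0.22 to 0.047), Sema4a (−0.022 to 0.20), Srgap2 (−0.22 to 0.12), Unc5a (−0.26 to 0.12), Unc5c (−0.37 to 0.33).

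The groups share replicate numbers in the labels, but only numbers 1 and 2 belong to a known library of each. Deviations of same-numbered libraries correlated at 0.28 for number 1 and −0.090 for number 2, so the numbers were not taken as pairs. With the replicate block 3 guidance genes were called higher and 1, Flrt1, lower (adjusted p = 0.0437), and Ntn1 did not pass (adjusted p = 0.0526). Controls had at most 21 counts each for Ntng1, 20 for Flrt3 and 15 for Sema3a, which limits the precision of their fold changes.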
